A study of Mus musculus with 18 samples.

Results

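The voltage-gated sodium and calcium channel genes are described here by their RNA levels in mouse embryonic stem cell (ESC)-derived spinal neurons. The set holds 29 of the 27179 genes in the deposited count tables, taken by symbol: 8 genes of the sodium channel pore (Nav alpha), 3 sodium channel beta genes, 10 genes of the calcium channel pore (alpha1), 4 alpha2delta genes and 4 calcium channel beta (Cav beta) genes. All 29 were found and tested. RNA-seq had been performed on 18 libraries in 6 groups of 3, which the study's figure legends describe as independent differentiations. Day 2 progenitors came from an inducible line labeled iCre, and the other 5 groups were day 4 neurons. All 6 groups, the day 2 progenitors included, had been differentiated with retinoic acid and a Hedgehog agonist. The iHoxc6, iHoxc8, iHoxc9 and iHoxc10 neurons had received 3 µg/ml doxycycline (Dox) for 48 h, which turned on a single Flag-tagged Hox transgene inserted near Hprt, whereas control neurons were iHoxc6-line cells without Dox. Each line is an engineered ESC line, the drug and the Hox protein cannot be told apart in any comparison with control, and the study describes the cultures as mostly postmitotic motor neurons with interneurons. In bulk RNA, fewer cells of a type and less RNA per cell cannot be told apart.

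Voltage-gated sodium channels open when a neuron depolarizes and carry the upstroke of the action potential, and their beta subunits adjust gating and surface expression. Voltage-gated calcium channels couple depolarization to calcium entry: L-type channels (Cacna1c, Cacna1d, Cacna1f, Cacna1s) signal to muscle contraction and transcription, P/Q-, N- and R-type channels (Cacna1a, Cacna1b, Cacna1e) drive transmitter release, and low-voltage T-type channels (Cacna1g, Cacna1h, Cacna1i) support burst firing. The alpha2delta and Cav beta subunits bring the calcium channel pore to the membrane and tune it. Developing motor neurons use both families to fire before and while they reach their targets.

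Total counts per library ranged from 24498630 to 33168533, so 3 counts corresponded to 0.0904 to 0.122 CPM (a gene's count scaled to a common library total), a limit for counting error only. The induced Hox gene was at 213 to 532 CPM in the libraries of its own line and at no more than 5.17 CPM in control. The libraries came from 4 sequencing runs, with day 2 progenitors and iHoxc8 neurons each alone in a run, control with iHoxc6, and iHoxc9 with iHoxc10, so in the other comparisons the run cannot be told apart from the group. The line cannot be told apart from the group in any comparison except iHoxc6 against control. Day 2 library 3 stood apart from its replicates, with a Pearson correlation of log2 CPM across genes of 0.987 with library 1 and 0.990 with library 2, against 0.998 between those, and the pluripotency gene Pou5f1 had 76 counts in it against 13 and 9. Day 2 library 2 had 5.76% of its counts in one gene, and control libraries 2 and 3 correlated at 0.991. Summed levels of 5 neuron markers were 254 to 510 CPM in day 2 libraries and 4652 to 6797 CPM in day 4 libraries, and none of the 5 motor neuron markers was at 0 in any group. Markers of striated or cardiac muscle, where Scn4a and Cacna1s are chiefly known, summed to 3.20 CPM at most. Long genes also differed between libraries. The median log2 ratio to the all-library mean was taken over 2587 genes with more than 8000 bp of exon and over 2280 genes with less than 2000 bp. The long-gene median minus the short-gene median was -0.52 to -0.23 in day 2, -0.66 to -0.01 in control and -0.33 to -0.05 in iHoxc6 libraries, but 0.33 to 0.47 in iHoxc9 and 0.20 to 0.52 in iHoxc10 libraries. In iHoxc8 it was 0.33 in library 1 and 0.41 in library 3 but -0.17 in library 2. Of the 29 channel genes, 19 had more than 8000 bp of exon, and the counts of calls are therefore also given with this trend removed, an alternative chosen after the data were seen.

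**Figure D1:**
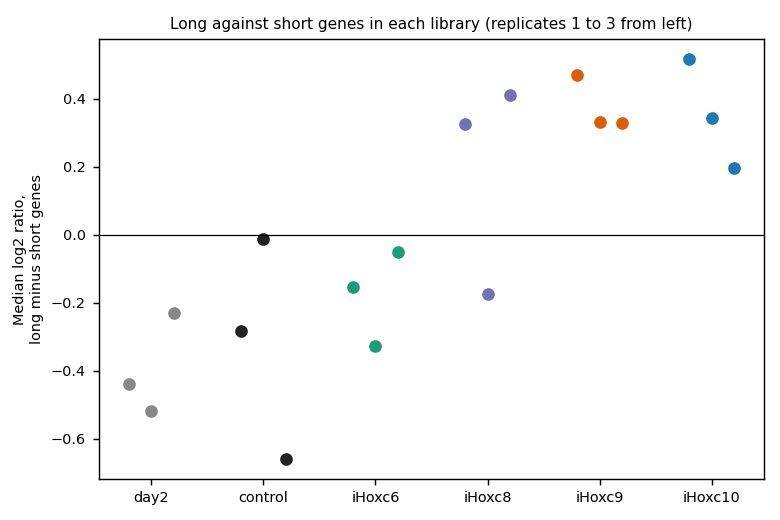
Difference between the median log2 ratios of long genes (more than 8000 bp of exon) and short genes (less than 2000 bp) in each of the 18 libraries, by group, with replicates 1 to 3 from left to right. The iHoxc9 and iHoxc10 points lie above 0, and the second iHoxc8 library lies below the other two of its group.

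The promoters of the 4 calcium channel genes that rose by more than 1 on the log2 scale in iHoxc9 against control neurons are shown first, because TAAT is the core preferred in vitro by anterior and central Hox proteins and TTAT by posterior ones such as HOXC9 and HOXC10. The study reports, however, that Hox binding in these cultures lay overwhelmingly far from transcription starts, and such distal sites were not examined here. Each run holds 250 bases before and 50 bases after an annotated RefSeq start (GRCm38.p6), 5′ to 3′ on the gene's strand, and capitals mark TTAT or its reverse complement ATAA.
Cacna1d, outer start (chr14:30491107-30491406, minus strand): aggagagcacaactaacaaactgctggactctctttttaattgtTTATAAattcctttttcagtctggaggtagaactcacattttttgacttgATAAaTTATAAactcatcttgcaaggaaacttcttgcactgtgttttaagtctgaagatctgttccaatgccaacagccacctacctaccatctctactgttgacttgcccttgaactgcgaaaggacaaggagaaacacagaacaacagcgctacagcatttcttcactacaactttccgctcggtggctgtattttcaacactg
Cacna1d, inner start (chr14:30353437-30353736, minus strand): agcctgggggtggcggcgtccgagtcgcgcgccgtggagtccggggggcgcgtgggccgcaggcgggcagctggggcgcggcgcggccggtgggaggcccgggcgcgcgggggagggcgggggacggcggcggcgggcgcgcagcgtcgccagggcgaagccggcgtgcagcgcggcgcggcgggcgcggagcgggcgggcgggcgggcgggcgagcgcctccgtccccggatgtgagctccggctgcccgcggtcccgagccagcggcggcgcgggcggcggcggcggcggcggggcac
Cacna1i (chr15:80286988-80287287, plus strand): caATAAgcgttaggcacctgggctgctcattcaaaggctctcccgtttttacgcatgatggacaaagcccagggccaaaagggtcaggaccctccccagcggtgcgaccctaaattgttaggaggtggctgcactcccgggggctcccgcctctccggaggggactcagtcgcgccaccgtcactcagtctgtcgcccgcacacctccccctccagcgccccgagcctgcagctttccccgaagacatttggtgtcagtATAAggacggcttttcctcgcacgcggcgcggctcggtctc
Cacna2d1 (chr5:15934441-15934740, plus strand): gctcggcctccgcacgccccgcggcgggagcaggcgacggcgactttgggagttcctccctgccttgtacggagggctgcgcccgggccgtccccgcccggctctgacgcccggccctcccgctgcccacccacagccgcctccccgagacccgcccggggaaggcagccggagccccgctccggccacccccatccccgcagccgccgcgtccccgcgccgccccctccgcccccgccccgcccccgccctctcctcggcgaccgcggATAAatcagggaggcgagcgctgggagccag
Cacnb2, outer start (chr2:14604056-14604355, plus strand): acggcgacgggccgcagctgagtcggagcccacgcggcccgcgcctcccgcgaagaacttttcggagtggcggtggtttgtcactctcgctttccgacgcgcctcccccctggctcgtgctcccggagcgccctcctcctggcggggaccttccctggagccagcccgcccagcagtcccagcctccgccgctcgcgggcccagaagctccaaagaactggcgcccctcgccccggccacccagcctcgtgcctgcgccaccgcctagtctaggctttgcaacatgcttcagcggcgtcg
Cacnb2, inner start (chr2:14823842-14824141, plus strand): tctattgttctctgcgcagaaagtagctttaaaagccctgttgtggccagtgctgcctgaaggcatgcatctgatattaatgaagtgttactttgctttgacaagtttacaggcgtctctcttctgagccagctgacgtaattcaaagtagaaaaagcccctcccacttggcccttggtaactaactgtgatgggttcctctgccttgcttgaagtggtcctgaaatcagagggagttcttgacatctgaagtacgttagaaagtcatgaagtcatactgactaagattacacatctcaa
The outer Cacna1d window held 5 TTAT and 2 TAAT matches on both strands together and only 4 CpG dinucleotides, whereas the inner one held 63 CpG and 0 TTAT. Cacna1i had 2 TTAT matches and Cacna2d1 had 1. Neither Cacnb2 window had TTAT, and its inner window, with 4 CpG, had 4 TAAT matches. TTAT was present in 64.1% and TAAT in 58.0% of all 32851 promoter windows (either strand, overlapping matches counted separately), so a match is a description of the letters and not of binding. Of the 29 channel genes, 23 had 33 windows, of which 15 (45.5%) held TTAT and 16 (48.5%) held TAAT. Which start was used cannot be read from counts per gene.

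On day 2 the channel genes were low, and 18 of 29 had a mean of more than 1 CPM. Levels are given as CPM normalized by the TMM method (mean ± SD, n = 3), and genes are compared with each other only as CPM per kilobase of exon. The Cav beta gene Cacnb3 was the highest member at 6.63 ± 0.77 CPM per kilobase on day 2, followed by the T-type gene Cacna1g at 2.26 ± 1.2 and Cacna2d1 at 1.62 ± 0.73. The summed Nav alpha level was 1.18 ± 0.26 CPM per kilobase in day 2 progenitors, and 47.3 ± 5.4% of it was Scn8a, the Nav1.6 channel of mature nodes and initial segments. In control neurons the sum was 5.69 ± 1.21, with Scn3a (Nav1.3, an embryonic sodium channel) at 39.7 ± 2.4% and Scn8a at 21.6 ± 5.0%. The alpha1 sum was 4.10 ± 1.21 on day 2 and 19.1 ± 1.5 CPM per kilobase in control. Scn9a took 18.6 ± 2.7% and Scn2a 15.0 ± 0.35% of the Nav alpha sum in control neurons.

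**Figure D2:**
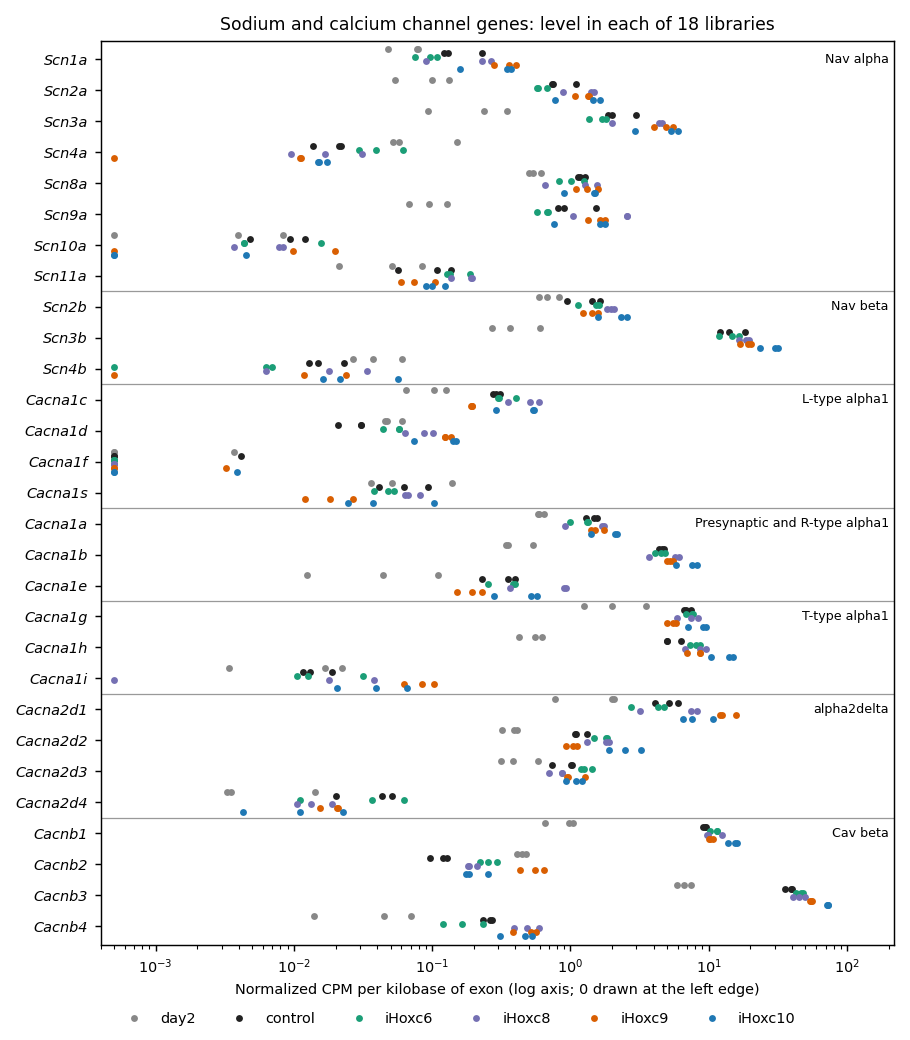
Level of each of the 29 channel genes in each of the 18 libraries, in normalized CPM per kilobase of exon on a log axis, with genes grouped by subunit class and libraries colored by group. Cacnb3 has the highest mean in every group, from 6.63 on day 2 to 72.2 in iHoxc10 neurons, and Scn10a and Cacna1f lie at or near 0.

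The first question of the design was how day 4 neurons differ from day 2 progenitors. In control neurons 19 of the 29 channel genes rose and 2 fell, and the median log2 fold change of the set was 1.57 against 0 for all genes. A gene passed at an adjusted p under 0.01 (edgeR's quasi-likelihood test, Benjamini-Hochberg over 20944 genes), which 21.2% of all genes did upward and 21.2% downward. The numbers that rose and fell were 20 and 2 in iHoxc6 neurons (22.7% and 23.9% of all genes), 20 and 2 in iHoxc8 neurons (22.3% and 22.3%), 21 and 2 in iHoxc9 neurons (23.4% and 23.3%), and 20 and 2 in iHoxc10 neurons (24.1% and 26.1%). These 5 comparisons share the day 2 libraries, so their counts are not independent. With an absolute log2 fold change above 2 also required, 12 channel genes passed in control (12.6% of all genes), and 13, 13, 13 and 15 in the iHoxc6 to iHoxc10 lines in order (14.8%, 14.2%, 15.6% and 18.7%). Without day 2 library 3 the numbers that rose and fell were 18 and 1 in control, 17 and 2 in iHoxc6 and 20 and 1 in each of the other 3 lines, and without day 2 library 2 the control numbers were 18 and 2. With the length trend removed they were 19 and 3 in control and 17 and 2 in iHoxc9 neurons. Of the 19107 genes in that fit, 3983 rose and 5025 fell in control, and 4029 rose and 5502 fell in iHoxc9 neurons. Shares of all genes are not given for the fits with a library left out. Day, line and run cannot be told apart here. Summed neuron markers were also higher on day 4, as given above, and their part in the result was not tested.

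Among the sodium channels, the largest rise was in Scn3b, a beta subunit that modulates Nav channels in embryonic neurons. Its level was 1.99, 3.26 and 1.47 CPM in the day 2 libraries and 99.2, 66.0 and 75.9 CPM in the control libraries, a log2 fold change of 5.17 (SE 0.24, adjusted p = 6.7e-14). Every control library lay far above every day 2 library. Scn3a was at 2.93, 4.36 and 1.16 CPM on day 2 and at 37.3, 23.1 and 24.7 CPM in control, a log2 fold change of 3.34 (SE 0.37, adjusted p = 7.3e-08). These groups did not overlap either. Here and below, non-overlap describes genes mostly picked by the test on the same libraries, so it adds no support. Its share over all genes was not taken. Scn9a (Nav1.7) rose by 3.48 (SE 0.37) and Scn2a (Nav1.2) by 3.17 (SE 0.31) on the log2 scale. Scn3a, Scn2a, Scn1a and Scn9a lie in a cluster on chromosome 2, from position 65457118 to 66635114 (GRCm38). Scn1a (Nav1.1) had the smallest change of the 4 in control (1.24, SE 0.39, adjusted p = 0.0102), and its log2 fold changes were 1.53 in iHoxc8, 2.37 in iHoxc9 and 2.12 in iHoxc10 neurons, which passed, and 0.46 in iHoxc6 neurons, which did not. Scn8a rose by 1.12 (SE 0.25) and the beta gene Scn2b by 0.94 (SE 0.22) in control.

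The remaining sodium channel genes were scarce. Scn4a, the skeletal muscle channel Nav1.4, was at 0.404, 0.366 and 1.06 CPM on day 2 and at 0.0964, 0.154 and 0.150 CPM in control, where it fell by 2.19 on the log2 scale (SE 0.56, adjusted p = 0.0022). Its counts were 12, 11 and 34 on day 2, and without day 2 library 3 or control library 1 the call was lost (-1.52 and -1.99). Scn11a (Nav1.9) rose in iHoxc6 and iHoxc8 neurons by 1.54 and 1.74 and was at 0.596 ± 0.239 CPM in control (log2 fold change 0.95, adjusted p = 0.066). Its iHoxc6 call was lost without day 2 library 3 (1.15) or iHoxc6 library 2 (1.34), and with only those groups in the fit (1.54). Scn4b fell in iHoxc6 neurons by 2.99 on the log2 scale, from 9, 4 and 6 counts to 1, 1 and 0 counts, and the call was lost when day 2 library 1 or any of the iHoxc6 libraries was left out (-3.36 to -2.50). Scn10a (Nav1.8), a sensory neuron channel, had at most 4 counts in any library and passed in no comparison.

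Of the 10 calcium channel pore genes, 6 rose and none fell in control. All 3 genes of the P/Q-, N- and R-types rose in control neurons. Cacna1b (N-type) led them, at 3.50, 5.29 and 3.40 CPM on day 2 and 46.9, 45.6 and 43.2 CPM in control, a log2 fold change of 3.47 (SE 0.20, adjusted p = 1.7e-12). Cacna1e (R-type) rose by 2.56 (SE 0.46) and Cacna1a (P/Q-type) by 1.26 (SE 0.21). Of the T-type genes, Cacna1h rose by 3.34 (SE 0.19) and Cacna1g by 1.62 (SE 0.23), and Cacna1i was at 1, 5 and 7 counts on day 2 and at 4, 3 and 5 counts in control. Of the L-type genes, Cacna1c, the widely expressed Cav1.2, rose by 1.57 (SE 0.26). Cacna1d (Cav1.3) did not pass in control (log2 fold change -0.89, SE 0.35, adjusted p = 0.035). Cacna1s, the skeletal muscle pore, was at 0.491 ± 0.362 CPM on day 2 and 0.431 ± 0.171 CPM in control, and fell by 1.91 on the log2 scale in iHoxc9 neurons (SE 0.60, adjusted p = 0.0088), a call lost without day 2 library 3 (-1.11) or any iHoxc9 library (-2.28 to -1.69). Cacna1f, known from photoreceptors, had at most 1 count in any library.

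Of the 8 auxiliary genes 7 rose and 1 fell in control. All 4 alpha2delta genes rose in control: Cacna2d1 and Cacna2d2 by 1.64 each, Cacna2d3 by 1.11, and the scarce Cacna2d4 by 2.41, from at most 4 to at most 15 counts, a call lost without library 2 or 3 of day 2 or library 1 or 3 of control (2.08 to 2.30). Cacnb1 rose by 3.38 (SE 0.16), Cacnb4 by 2.56 (SE 0.37) and Cacnb3 by 2.53 (SE 0.13). Cacnb3 was at 23.6, 26.4 and 29.8 CPM on day 2 and at 160, 143 and 159 CPM in control. Cacnb2, best known as the cardiac beta subunit, went the other way. Its levels were 6.27, 5.89 and 5.47 CPM on day 2 and 1.57, 1.69 and 1.27 CPM in control, and it fell by 1.95 on the log2 scale (SE 0.21, adjusted p = 5.3e-08). Its day 2 libraries all lay above its control libraries. In iHoxc9 neurons, at 7.31, 8.51 and 5.73 CPM, Cacnb2 overlapped its day 2 levels (log2 fold change 0.29, SE 0.19, adjusted p = 0.21).

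The makeup of each family was taken as shares of its summed level per kilobase. Cacna1g took 52.8 ± 12% of the summed alpha1 level in day 2 progenitors and 36.4 ± 0.87% in control neurons, where Cacna1h followed with 28.3 ± 1.7% and Cacna1b with 23.8 ± 1.3%. For the iHoxc6, iHoxc8, iHoxc9 and iHoxc10 lines in order, the Cacna1h share was 36.7 ± 1.6%, 35.5 ± 1.5%, 38.7 ± 1.7% and 41.1 ± 0.17%, above Cacna1g in each. Without division by exon length the Cacna1h share in control was 26.4%. The Scn3a share of the Nav alpha sum was 38.6 ± 2.5%, 42.5 ± 1.7%, 51.1 ± 0.53% and 52.1 ± 0.66% in the same order. Among alpha2delta genes Cacna2d1 took 55.6 ± 6.7% in iHoxc6 and 86.2 ± 2.4% in iHoxc9 neurons, and the mean Cacnb3 share of the Cav beta sum was 79.8% to 82.8% in the 6 groups. Shares were not tested.

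**Figure D3:**
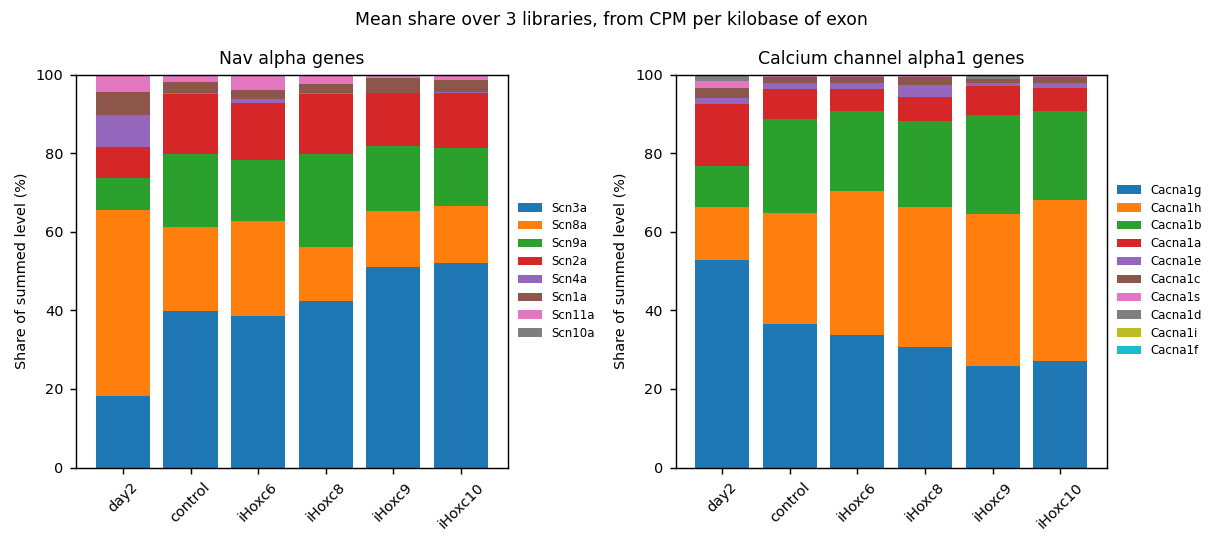
Mean share (%) of each gene in the summed level of the 8 Nav alpha genes (left) and of the 10 calcium channel alpha1 genes (right) in each group, from CPM per kilobase of exon over 3 libraries. Scn8a and Cacna1g hold the tallest parts on day 2, and Scn3a and, in the iHox groups, Cacna1h hold them on day 4.

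The second question was what a single Hox protein changes among day 4 neurons. Against control, 1 channel gene rose in iHoxc6 (0.363% of all genes did), 1 in iHoxc8 (1.03%), 5 in iHoxc9 (6.95%) and 8 in iHoxc10 neurons (6.67%). With 1 library left out these numbers ran from 0 to 1, 0 to 2, 2 to 4 and 5 to 11 in that order. Shares of all genes are not given for these fits or for unadjusted p. The iHoxc6 and iHoxc8 calls were lost in the fits named below for Cacnb2 and Cacna1d, and the iHoxc8 number was 2 without iHoxc8 library 2. The iHoxc9 number was 2 without control library 3 or iHoxc9 library 1 and 3 without control library 1 or iHoxc9 library 2 or 3, and the iHoxc10 number was 5 without iHoxc10 library 2. None fell in edgeR (lower at an unadjusted p under 0.05 were 1, 1, 2 and 1 genes) or in DESeq2's Wald test, while 0.224%, 1.09%, 7.13% and 7.75% of all genes fell. The channel genes that rose made up 17.2% of the set in iHoxc9 and 27.6% in iHoxc10 neurons. The set's median log2 fold changes in the same order were -0.02, 0.31, 0.17 and 0.66, against medians of 0.02 or less over all genes. The 4 comparisons share the control libraries. With an absolute log2 fold change above 2 also required, 0, 0, 3 and 1 channel genes passed, against 0.115%, 0.22%, 2.7% and 1.48% of all genes, and above 1 required, 3 passed in iHoxc10 neurons (6.86%). With the trend with exon length removed, the numbers that rose were 1, 0, 4 and 6, and 2 channel genes fell in iHoxc9 neurons. Of the 19107 genes in that fit, 101, 156, 1037 and 1232 rose in the same order, and 1421 fell in iHoxc9 neurons. In that fit Cacna1d in iHoxc8 (1.34), Cacna1i in iHoxc9 (2.12), and Cacna1b (0.41) and Cacnb2 (0.52) in iHoxc10 no longer passed.

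The genes that rose in iHoxc9 neurons were Cacna1d, Cacna1i, Cacna2d1, Cacnb2 and Cacnb3. Cacna1d, a pore that opens at more negative voltages than Cav1.2 and serves pacemaking, was at 0.385, 0.385 and 0.262 CPM in control and at 1.56, 1.74 and 1.55 CPM in iHoxc9 neurons, a log2 fold change of 2.22 (SE 0.32, adjusted p = 2.6e-05). It was at 1.79, 1.86 and 0.932 CPM in iHoxc10 neurons, where its log2 fold change was 2.14 (SE 0.32, adjusted p = 5.7e-05). In both lines every library lay above every control library. In iHoxc8 neurons it was at 1.09, 0.801 and 1.28 CPM (log2 fold change 1.61, SE 0.33, adjusted p = 0.0056), and in iHoxc6 neurons at 0.732, 0.560 and 0.729 CPM (0.95, SE 0.35, adjusted p = 0.12). The iHoxc8 and iHoxc6 libraries, too, all lay above every control library, but the iHoxc6 comparison did not pass. The share of all genes without overlap was not taken, so this is not a call for iHoxc6. Control libraries held 12, 10 and 7 Cacna1d counts, and the gene overlaps 2 other counted genes, so its value carries both limits. The iHoxc8 call was lost when control library 1 or 3 or iHoxc8 library 1 or 3 was left out, with log2 fold changes of 1.70, 1.44, 1.58 and 1.41. It was also lost with only iHoxc8 and control in the fit.

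Cacna1i, a T-type gene of few counts, was at 4, 3 and 5 counts in control and at 26, 21 and 21 counts in iHoxc9 neurons, or 0.128, 0.116 and 0.187 CPM and 1.02, 0.618 and 0.836 CPM. Its log2 fold change was 2.48 (SE 0.64, adjusted p = 0.0069). No iHoxc9 library overlapped control, but the call was lost when any 1 of the 6 libraries was left out (log2 fold changes 2.30 to 2.67). In iHoxc10 neurons it was at 0.385, 0.645 and 0.203 CPM (adjusted p = 0.12), and in iHoxc8 neurons at 0.177, 0 and 0.375 CPM.

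Cacna2d1, the alpha2delta gene with the highest level, was at 63.6, 74.4 and 50.5 CPM in control and at 196, 149 and 154 CPM in iHoxc9 neurons (log2 fold change 1.40, SE 0.32, adjusted p = 0.0026). All 3 iHoxc9 libraries exceeded all control libraries. Leaving out control library 1, control library 3 or iHoxc9 library 1 took the call away (1.41, 1.24 and 1.27). In iHoxc6 it was at 53.3, 34.2 and 58.7 CPM, in iHoxc8 at 92.2, 39.4 and 102 CPM, and in iHoxc10 at 134, 94.4 and 81.0 CPM, and none of these passed (adjusted p = 0.55, 0.60 and 0.11). Among the iHoxc8 libraries the second was the low one, as in the long-gene measure.

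Cacnb2, which fell between day 2 and control, passed upward in 3 of the 4 iHox lines against control. It was at 3.90, 3.33 and 2.95 CPM in iHoxc6 neurons (log2 fold change 1.16, SE 0.21, adjusted p = 0.0042), the only channel gene that passed there, and the pair of groups shares a line and a run. Its iHoxc9 log2 fold change was 2.25 (SE 0.21, adjusted p = 5.7e-08), and its iHoxc10 levels of 2.45, 3.37 and 2.31 CPM gave 0.84 (SE 0.22, adjusted p = 0.0065). In iHoxc8 it was at 2.45, 2.40 and 2.78 CPM (0.75, adjusted p = 0.035). Each of the 4 lines lay above control in all libraries, but the iHoxc8 comparison did not pass. For iHoxc8 this is not a call, as the share of all genes without overlap was not taken. The iHoxc6 call was lost with control library 1 or 3 or iHoxc6 library 1 or 2 left out (1.19, 1.07, 1.05 and 1.20). It was also lost with only iHoxc6 and control in the fit, so it rests on a spread estimated over all groups. The iHoxc10 call was lost with control library 1 or 3 or iHoxc10 library 1 or 2 left out (0.87, 0.75, 0.91 and 0.62).

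**Figure D4:**
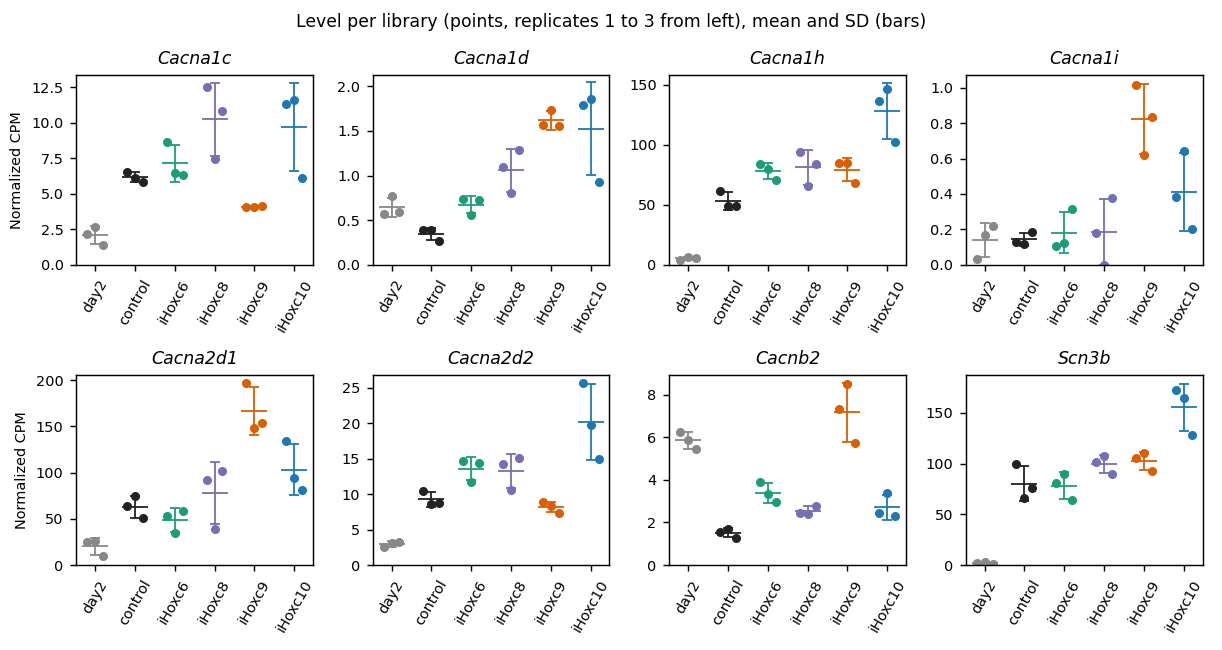
Normalized CPM of 8 channel genes in each library (points, replicates 1 to 3 from left) with the mean and SD of each group (bars), each axis starting at 0. Cacnb2 and Cacna2d1 are highest in iHoxc9 neurons and Cacna1h, Cacna2d2 and Scn3b in iHoxc10 neurons. Cacna1d is above control in all iHoxc6, iHoxc8, iHoxc9 and iHoxc10 libraries, though its iHoxc6 comparison did not pass.

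The 8 genes that rose in iHoxc10 neurons came from 6 of the 7 subunit classes (Nav beta, each alpha1 type, alpha2delta and Cav beta). Scn3b was at 172, 165 and 129 CPM against 99.2, 66.0 and 75.9 CPM in control (log2 fold change 0.95, SE 0.19, adjusted p = 0.0010). It was the only sodium channel gene past the test against control in any of the 4 lines. Cacna1h was at 136, 146 and 102 CPM against 61.6, 49.0 and 48.6 CPM (1.27, SE 0.17, adjusted p = 1.4e-05), and Cacna2d2 at 25.7, 19.8 and 15.0 CPM against 10.5, 8.59 and 8.72 CPM (1.12, SE 0.19, adjusted p = 0.00015). No iHoxc10 library overlapped control for these genes. Cacnb3 rose to 285, 292 and 291 CPM (0.91, SE 0.12, adjusted p = 1.2e-05) and was at 215, 220 and 225 CPM in iHoxc9 neurons (0.52, SE 0.12, adjusted p = 0.0030), where leaving out control library 3 or any iHoxc9 library ended the call (0.45 to 0.53). Cacnb1, the beta subunit of skeletal muscle that neurons also use, rose by 0.69 (SE 0.14, adjusted p = 0.0011; 0.64 and past the threshold no longer without iHoxc10 library 2), and Cacna1b rose to 75.3, 81.1 and 57.8 CPM (0.66, SE 0.18, adjusted p = 0.0080). The Cacna1b call was lost when any of the 6 libraries except iHoxc10 library 3 was left out (0.52 to 0.69).

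The sodium channel pores gave no call against control. None of the 8 Nav alpha genes passed in edgeR in any of the 4 comparisons, and none in DESeq2's test. At an unadjusted p under 0.05, 1 was lower in iHoxc6 and 4, 3 and 3 were higher in iHoxc8, iHoxc9 and iHoxc10. Scn3a was at 22.5, 17.1 and 21.1 CPM in iHoxc6 and 57.5, 24.8 and 54.4 CPM in iHoxc8 neurons. It was at 69.0, 61.6 and 50.4 CPM in iHoxc9 and 74.9, 66.8 and 36.8 CPM in iHoxc10 neurons. Against control it gave log2 fold changes of 1.09 in the iHoxc9 line and 1.07 in the iHoxc10 line (adjusted p = 0.016 and 0.018). Library 2 of iHoxc8 and library 3 of iHoxc10 were the low ones of their groups. Leaving out both, an alternative added after the data were seen, gave 4 channel genes that rose in iHoxc8, 8 in iHoxc9 and 14 in iHoxc10, with Scn1a (1.20), Scn2a (0.87) and Scn3a (1.35) among those in iHoxc10 and Scn9a (1.25) among those in iHoxc8. Neither library is part of the iHoxc9 comparison, where 3 more genes passed, the spread being estimated over all libraries. Shares of all genes are not given for this fit, so its counts have no background to be set against. With the length trend removed, Scn3a passed in neither line, and Cacna1c and Cacna1e fell in iHoxc9 neurons by 1.19 and 1.44 on the log2 scale.

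**Figure D5:**
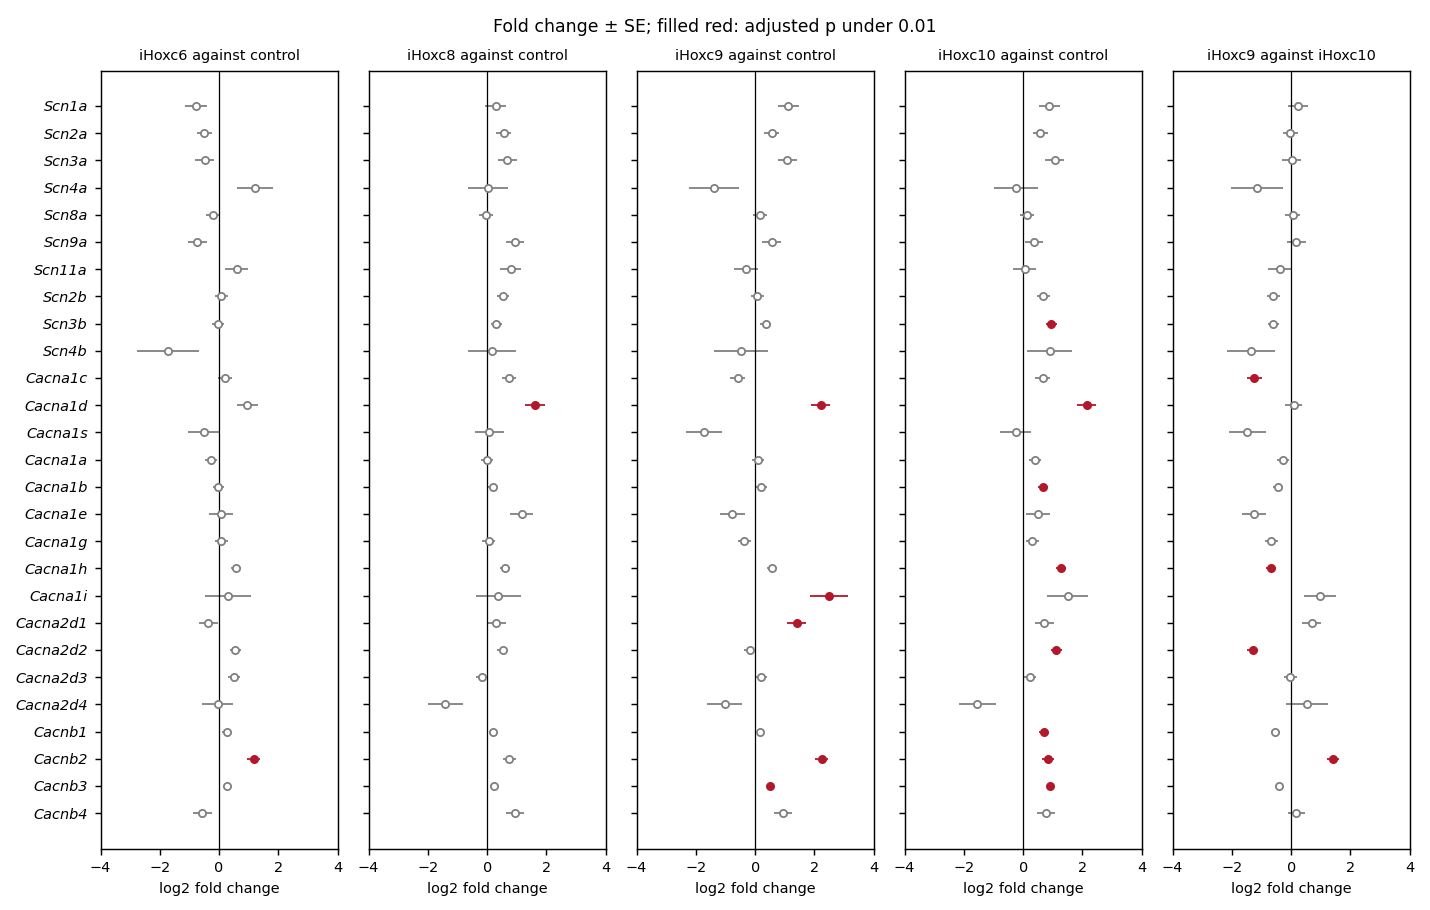
Log2 fold change ± SE of 27 channel genes in the 4 comparisons with control and in iHoxc9 against iHoxc10, with filled red points for an adjusted p under 0.01. The 2 genes left out, Scn10a and Cacna1f, have group means under 0.1 CPM. All filled points in the first 4 panels lie right of 0, and in the last panel Cacnb2 lies right and Cacna1c, Cacna1h and Cacna2d2 lie left.

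The third question was how the posterior iHoxc9 and iHoxc10 neurons, which share a sequencing run, differ. They are different engineered lines, so the line and the Hox protein cannot be told apart. Cacnb2 was higher in iHoxc9 (2.6% of all genes were) and 3 channel genes were lower (2.4%). Cacnb2 exceeded its iHoxc10 level by 1.41 on the log2 scale (SE 0.20, adjusted p = 4.2e-05). Cacna1c, at 11.3, 11.6 and 6.12 CPM in iHoxc10 neurons, was at 4.07, 4.09 and 4.10 CPM in iHoxc9 neurons, a log2 fold change of -1.25 (SE 0.25, adjusted p = 0.0015). Cacna2d2 was at 8.84, 8.33 and 7.40 CPM in iHoxc9 neurons (-1.30, SE 0.19, adjusted p = 5.0e-05), and Cacna1h at 84.7, 85.1 and 68.1 CPM (-0.69, SE 0.17, adjusted p = 0.0090). For each of the 4 genes the libraries of the 2 lines did not overlap, which their passing the test on the same libraries makes likely. Cacna1h lost its call in 5 of the 6 fits with a library left out (-0.74 to -0.60), all but the one without iHoxc10 library 3, and Cacna1c without iHoxc10 library 1 (-1.12). None of the 4 exceeded 2 on the log2 scale, which 1.31% of all genes did. A fit of these 2 groups alone gave 2 higher and 9 lower channel genes, and DESeq2's test gave 1 higher and 5 lower. Shares of all genes are not given for these 2 alternatives, so their counts have no background to be set against. Cacna2d1 (0.69, SE 0.31, adjusted p = 0.23) and Cacna1d (0.08, SE 0.27, adjusted p = 0.95) did not pass, and the 95% intervals of these differences, unadjusted and taken from the fold change and its SE, ran from 0.07 to 1.31 and from -0.45 to 0.61. Nor did any Nav alpha gene (0 of 8 at an unadjusted p under 0.05, and 0 in DESeq2's test).

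Markers of several cell types also differed between these lines and control. Of 5 neuron markers, 1 rose in iHoxc9 (Map2, 1.86) and 2 rose in iHoxc10 neurons (Map2, 1.48, and Snap25, 0.87), and none fell. Of 6 neural progenitor markers, 1 rose and 2 fell in iHoxc9 (median log2 fold change 0.44), and none rose and 3 fell in iHoxc10 neurons (median -0.84, with Olig2, Pax6 and Hes5 falling). Their summed level was 311 to 730 CPM in control, 578 to 642 CPM in iHoxc9 and 394 to 430 CPM in iHoxc10 libraries. The 5 motor neuron markers summed to 254 to 274 CPM in iHoxc9, 477 to 536 CPM in iHoxc10 and 493 to 523 CPM in control, and 4 fell in iHoxc9 and 1 in iHoxc10 neurons. The summed level of 6 ventral interneuron markers was 29.9 to 38.2 CPM in iHoxc9 libraries, 7.78 to 13.1 CPM in iHoxc10 and 3.16 to 4.82 CPM in control, and 2 rose in each line. The sum of 6 sensory or neural crest markers was 24.3 to 32.6 CPM in iHoxc9, 81.9 to 97.8 CPM in iHoxc10 and 168 to 209 CPM in control, most of it Prph in control (112 to 163 CPM). In iHoxc9 neurons 1 of these 6 rose and 4 fell (median -2.08). In iHoxc10 neurons the list went the other way from its sum, since Prph fell by 1.98 on the log2 scale while Pou4f1 rose by 1.74 and the scarce Prrxl1, at 4, 1 and 6 counts in control and 21, 30 and 20 counts in iHoxc10, also rose (median 0.41). The glial marker Mbp rose in iHoxc10 neurons (0.75). None of the neuron, progenitor, motor neuron, interneuron or sensory markers was at 0 in all libraries of a group, and Gfap was at 0 in control, iHoxc9 and iHoxc10. The part of these markers in the channel results was not tested, and genes named here were chosen after their values were seen.

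Genes that act with the channels were counted in 3 lists. Of 10 sodium channel anchors and modulators, 8 rose in control against day 2 progenitors, and against control 0, 0, 2 and 5 rose in iHoxc6, iHoxc8, iHoxc9 and iHoxc10 neurons, with none lower in edgeR (1, 0, 0 and 0 lower at an unadjusted p under 0.05, and 1 lower in DESeq2's test in iHoxc6). The shares of all genes given above apply to these lists too. Fgf14, which binds the tail of Nav channels, was at 1.07 ± 0.59 CPM in control and 4.15 ± 0.75 CPM in iHoxc9 neurons (log2 fold change 1.93, SE 0.34, adjusted p = 0.00021). Nrcam, an adhesion molecule of nodes and initial segments, rose by 1.14 in iHoxc9 and 0.93 in iHoxc10 neurons. Sptbn4, the beta-IV spectrin of the initial segment, was at 3.66 ± 0.51 CPM in control, 2.87 ± 0.11 CPM in iHoxc9 neurons but 7.16 ± 2.0 CPM in iHoxc10 neurons, and iHoxc9 against iHoxc10 gave a log2 difference of -1.32 (SE 0.22, adjusted p = 0.00033). Its rise in iHoxc10 against control (0.97) was lost without control library 2 or iHoxc10 library 1 or 2 (0.86, 0.86 and 0.80).

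Of 11 calcium channel modulators and active zone genes, 6 rose and 1 fell in control against day 2 progenitors, and 0, 1, 3 and 4 rose in the 4 lines against control. None was lower in edgeR or in DESeq2's test (1, 0, 1 and 0 at an unadjusted p under 0.05). Stac, an adaptor of L-type channels, was at 0.256 ± 0.12 CPM in control, 1.25 ± 0.10 CPM in iHoxc9 neurons and, highest, 2.75 ± 0.042 CPM in iHoxc10 neurons, with log2 fold changes of 2.25 (SE 0.36) and 3.38 (SE 0.34). Its relative Stac2 rose by 0.66, 0.90 and 1.64 in iHoxc8, iHoxc9 and iHoxc10, and its iHoxc8 call was lost without control library 3 or iHoxc8 library 1 or 2 (0.54, 0.64 and 0.56). Cabp1, a calcium-binding protein that modulates Cav channels, was at 12.6 ± 1.8 CPM in control, 42.1 ± 0.91 CPM in iHoxc9 neurons and then 34.5 ± 1.4 CPM in iHoxc10 neurons (1.74, SE 0.15, and 1.45, SE 0.15). Of 3 genes of the sodium leak channel complex, all 3 rose in control against day 2 progenitors and Unc79 alone rose against control, in iHoxc10 neurons (0.89, SE 0.21, adjusted p = 0.0038), a call lost without control library 1 or 3 or iHoxc10 library 1 or 2 (0.83 to 0.90). Unc79 was named after its value was seen.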

How the data were processed

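Per the study's methods and the submitters' processing notes, reads were aligned with STAR 2.7.0c to mm10 and assigned to RefSeq genes with featureCounts. The deposited values were raw read counts per Entrez gene, and the authors gave 1 count table per group. The counting strand setting is not stated, so Cacna1c, Cacna1d, Cacna1h, Cacna2d3, Cacna2d4, Cacnb1, Cacnb2, Cacnb4, Scn9a and Scn2b, which overlap other counted genes, carry uncertain values.

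The 18 libraries (24498630 to 33168533 counts) were fitted together with edgeR 4.0.16 (quasi-likelihood test, TMM factors, R 4.3.3), on the 20944 genes that an iHox library had counted at least once. The Benjamini-Hochberg adjustment ran over all of these, and an adjusted p under 0.01 passed. Each SE was the absolute log2 fold change divided by the square root of the F statistic of that test. The SE and the intervals made from it therefore add no evidence to the test. Levels per kilobase used the union of GENCODE exons on GRCm38. DESeq2 1.42.0 was an alternative, with other scaling, filters, fold thresholds, fitted groups, a replicate block and each library left out. Scripts were tested on simulated data. Promoters came from RefSeq. The channel genes and all lists were chosen with earlier results of these data known. All 29 were named; values per library were given for genes past a log2 fold change of 1 in a comparison among day 4 groups and for the highest gene of each class, with further genes shown for context.

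Libraries of iHoxc9 and iHoxc10 with the same replicate number deviated alike from their group means, with correlations of 0.525, 0.428 and 0.599. In the other comparisons these correlations were 0.371 at most. The labels state no pairing, and correlations between differently numbered libraries were not taken, so a pairing is not shown. The replicate block was fitted over all 18 libraries, with replicate effects shared by the 6 groups. With it the same 4 channel genes passed in iHoxc9 against iHoxc10. It does not model a pairing of iHoxc9 and iHoxc10 alone, and a paired fit of those groups was not run. One marker gene is not reported here.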

Additional observations from a re-analysis of the deposited data

Results flagged for a closer look

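The effect of iHoxc9 and the effect of iHoxc10, each taken against control, differed for 4 channel genes in edgeR's test of the difference (adjusted p under 0.01), and the control term cancels in that difference. The difference on the log2 scale, iHoxc9 minus iHoxc10, was 1.41 for Cacnb2, -1.25 for Cacna1c, -0.69 for Cacna1h and -1.30 for Cacna2d2. For Cacna1c the effects against control had opposite signs, -0.60 in iHoxc9 and 0.65 in iHoxc10, and neither passed (adjusted p = 0.086 and 0.052).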

How the results depend on the processing

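No channel gene past the test reversed its direction under any alternative. Of 19 channel results among day 4 groups, 9 stayed past the threshold throughout and 10 lost it in at least 1 alternative, and of 110 results against day 2, 21 lost it in at least 1. With an absolute log2 fold change above 2 required, the numbers past the test were 12 in control and 13 in iHoxc6, iHoxc8 and iHoxc9 against day 2, 0 in iHoxc6 and iHoxc8, 3 in iHoxc9 and 1 in iHoxc10 against control, and 0 in iHoxc9 against iHoxc10. With 1 required, 3 passed in iHoxc10 against control. Fitting only the groups compared gave 0 in iHoxc6 and 0 in iHoxc8 against control, and 11 in iHoxc9 against iHoxc10. Removing the length trend gave 0 in iHoxc8, and leaving out iHoxc8 library 2 with iHoxc10 library 3 gave 4, 8 and 14 for iHoxc8, iHoxc9 and iHoxc10 against control. Leaving out 1 library gave, against day 2, 19 to 22 for control, 18 to 21 for iHoxc6, 20 to 22 for iHoxc8, 21 to 23 for iHoxc9 and 21 to 22 for iHoxc10. Against control it gave 0 to 1 for iHoxc6, 0 to 2 for iHoxc8, 2 to 4 for iHoxc9 and 5 to 11 for iHoxc10 (5 without iHoxc10 library 2, 11 without library 3). The iHoxc8 count was 2 without iHoxc8 library 2, and the iHoxc9 count was 2 without control library 3 or iHoxc9 library 1 and 3 without control library 1 or iHoxc9 library 2 or 3. It gave 2 to 4 in iHoxc9 against iHoxc10, with 2 without iHoxc10 library 1. The replicate block gave 22, 20, 22, 22 and 22 against day 2, 1, 1, 5 and 7 against control, and 4 in iHoxc9 against iHoxc10. The Scn3a share was 49.4% in iHoxc9 and 50.4% in iHoxc10 without division by length, and 50.2% and 51.1% with the longest transcript. The Cacna1h share without division by length was 26.4% for control and 34.3%, 32.4%, 36.7% and 38.6% for the iHoxc6 to iHoxc10 lines in order. The cause of these shifts was not tested. Shares of all genes are not given for unadjusted p or for fits with libraries left out, fewer groups or the replicate block. Depth limits Scn10a, Cacna1f, Scn4b, Cacna1i and Cacna2d4, which had few counts.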

Other observations

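Summed subunit levels varied within 2 groups. In iHoxc8 the Nav alpha sum was 10.4, 4.88 and 10.3 CPM per kilobase and the alpha2delta sum 10.1, 5.37 and 10.8, lowest in the second library, while the Cav beta sum was 55.2, 62.2 and 51.2, highest there. In iHoxc10 the Nav alpha sum was 11.4, 10.4 and 5.68 and the alpha1 sum 34.1, 36.3 and 25.4, lowest in the third library, while the Cav beta sum was 85.6, 89.0 and 88.9. These sums were not tested.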
